A study of Homo sapiens with 4 samples.

Results

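The genes described here are the initiation and elongation factors of protein synthesis in the cytoplasm, measured by RNA sequencing in cells of A2780, a human line derived from an ovarian cancer. They are the protein-coding rows whose name starts with EIF1 to EIF6, EEF1 or EEF2, leaving out the kinases named EIF2AK. This gave 61 of the 57773 genes in the table, of which 20327 are protein-coding. The study has 1 contrast. Wogonin, a plant flavone, was given at 10 ug/mL for 48 h to the cells of 2 libraries, numbered 3 and 4. The 2 libraries numbered 1 and 2 received the solvent DMSO, for a time that the labels do not give. All 4 libraries carry the genotype label WT. The study asks whether wogonin acts on growth through DNA demethylation, which these transcript levels do not measure.

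Translation starts when a small ribosomal subunit, loaded with initiator tRNA by eIF2 and held by the eIF3 scaffold, is brought to the capped end of an mRNA by the eIF4F complex and scans for a start codon. eIF2 is recharged with GTP by eIF2B, the step that stress kinases block by phosphorylating the eIF2 alpha subunit, and eIF4F assembly is blocked by the 4E-BP proteins that hold the cap-binding protein eIF4E. After subunit joining, eEF1A brings aminoacyl-tRNA to the ribosome, the eEF1B complex recharges eEF1A and eEF2 moves the ribosome along. Many mRNAs of this machinery start with a C and a run of pyrimidines, the 5′ terminal oligopyrimidine (TOP) element, through which growth signals control their translation. Transcript levels measure neither protein, nor phosphorylation, nor the rate of translation.

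Total exon reads were 11005921 and 11287570 in wogonin 3 and 4, against 11478731 and 11839562 in DMSO 1 and 2. A count of 3 reads, used as the floor, was worth 0.253 to 0.273 CPM (counts scaled to a common library size). Introns took 7.96% of gene reads in wogonin 3, against 5.26 to 5.61% in the other libraries, and mitochondrial genes took 3.03% of exon reads in wogonin 4, against 1.45 to 1.67% in the others. The median log2 fold change of the members was 0.30 without wogonin 3 and 0.33 without wogonin 4, beside 0.32 in the fit reported here. Over all genes it was -0.00 and -0.01 in the fits without wogonin 3 and 4. With mitochondrial genes removed before scaling, 33 members were called higher and 12 lower, as in the fit reported here. In that setting 4305 of all 13436 genes tested were higher and 4287 lower. The label calls the cells an ovarian adenocarcinoma. In the mean of the 4 libraries, however, 0 of 5 epithelial markers stood above 1 TPM (a level per exon length). The count was also 0 of 5 for Müllerian and ovarian markers. EPCAM had 0.591 and 0.277 TPM in wogonin 3 and 4, against 1.14 and 1.26 TPM in DMSO 1 and 2. MUC16, ESR1 and EMX2 had 0 reads in every library. Of the other cell types, PTPRC, CD3E, VWF and CDH5 were at 0 reads. CD68 stood at 38.4 and 26.3 TPM in wogonin, against 33.2 and 40.9 TPM in DMSO. The summed TPM of 4 fibroblast markers was 3.43 and 3.51 in wogonin, against 6.46 and 5.91 in DMSO. Most of that sum was COL1A1, at 2.88 and 2.91 TPM in wogonin, against 5.56 and 4.59 TPM in DMSO. In such bulk libraries fewer cells of a type and less RNA per cell cannot be told apart. The labels do not say whether the cells of a group were cultured separately, so p-values reflect the spread of these samples alone, and that spread may be technical.

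Start sites are shown because the TOP element sits there. The windows are from RefSeq on GRCh38.p14, sense strand, 10 bases before to 20 bases from the annotated start. Capitals mark a C followed by 4 or more letters that are each C or T, starting within 5 bases of the annotated start. The annotated starts were not measured in these cells. A run of 7 or more letters stood in 10 of 49 members with an entry (20.4%), against 1259 of 15843 protein-coding promoters (7.95%). The members with such a run are the following, and in the list EIF2D, EIF2S3 and EIF4G2 are the ones with lower transcript levels in wogonin.
EEF1A1: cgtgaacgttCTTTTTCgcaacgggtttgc
EEF2: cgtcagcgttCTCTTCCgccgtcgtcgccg
EIF2A: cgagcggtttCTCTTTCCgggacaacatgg
EIF2D: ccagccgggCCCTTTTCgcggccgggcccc
EIF2S3: gatttCCTTCCTCTTTTggcaacatggcgg
EIF3D: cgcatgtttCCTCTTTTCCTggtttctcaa
EIF3F: cttccgCCTCCTTCTTTCTCgacaagatgg
EIF3K: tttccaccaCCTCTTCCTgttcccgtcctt
EIF3M: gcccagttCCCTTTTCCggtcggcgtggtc
EIF4G2: tgtcggaagcaCTTCCCTaacttgcgcctg
These windows lie at chr6:73521013-73521042 (minus strand), chr19:3985444-3985473 (minus), chr3:150546777-150546806 (plus), chr1:206612446-206612475 (minus), chrX:24054946-24054975 (plus), chr22:36529147-36529176 (minus), chr11:7987327-7987356 (plus), chr19:38619178-38619207 (plus), chr11:32583821-32583850 (plus) and chr11:10807977-10808006 (minus), in the order of the list.

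Of the 12 called members with the largest change, EIF4EBP3, EEF1G, EIF4ENIF1 and the following 4 had an entry and no marked run of any length. A run stood in EIF3C (5 letters), EIF3J (6), EIF2A (8) and EIF4G2 (7). In wogonin EIF2B1, EIF2S1 and EIF1AD were higher and EIF1B was lower.
EIF2B1: gtacggaagtgcgccggaagtggggtgcgg
EIF2S1: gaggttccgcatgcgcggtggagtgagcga
EIF1AD: cagcgccggaagtacggttttcggagggat
EIF1B: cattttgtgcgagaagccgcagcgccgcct
They lie at chr12:123633667-123633696 (minus), chr14:67360318-67360347 (plus), chr11:66002138-66002167 (minus) and chr3:40309697-40309726 (plus). A promoter entry was found for 49 of the 61 members. A TOP-like start stood in 20 of these 49 (40.8%), against 3502 of 15843 protein-coding promoters in the same table (22.1%). It stood in 12 of 28 members that were higher in wogonin, in 5 of 9 that were lower and in 3 of 11 that did not pass the test. The E-box CACGTG, which reads the same on both strands, was found from 250 bases before to 50 bases after the start in 12 of 49 members (24.5%), against 1407 of 15843 promoters (8.88%). It stood in 7 of 28 higher members, in 2 of 9 lower ones and in 3 of 11 that did not pass. Runs and motifs are matches of letters and describe no binding.

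Most factors moved by less than 1 log2 unit, and more of them were higher than lower. Of 58 members tested, 33 were higher and 12 lower in wogonin by edgeR's quasi-likelihood test with Benjamini-Hochberg adjustment at 0.05, and 13 did not pass. Over all 13449 genes tested, 32.3% were higher and 31.5% lower (63.8% either way), against 56.9% and 20.7% of the members. The median log2 fold change of the members was 0.32, against -0.00 over all genes. With library totals alone, in which the all-gene median was -0.09, the members' median was 0.22. A change of 1 log2 unit or more was called for 3 higher and 3 lower members, with a background of 6.31% and 9.94% of genes. The wogonin and DMSO libraries did not overlap in 51 of the 58 members, against 81.9% of all genes. The 3 members not tested were EIF4E1B, with 0 reads in every library, EIF2S3L, with at most 3 reads in a library, and the Y-linked EIF1AY, which is counted without its level. As a share of all exon reads, the members took 2.79% (95% Wilson interval 2.78 to 2.80%) and 2.77% (2.76 to 2.78%) in wogonin 3 and 4, against 2.54% (2.53 to 2.54%) and 2.55% (2.54 to 2.56%) in DMSO 1 and 2. These intervals, like the floor, cover counting error alone.

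**Figure D1:**
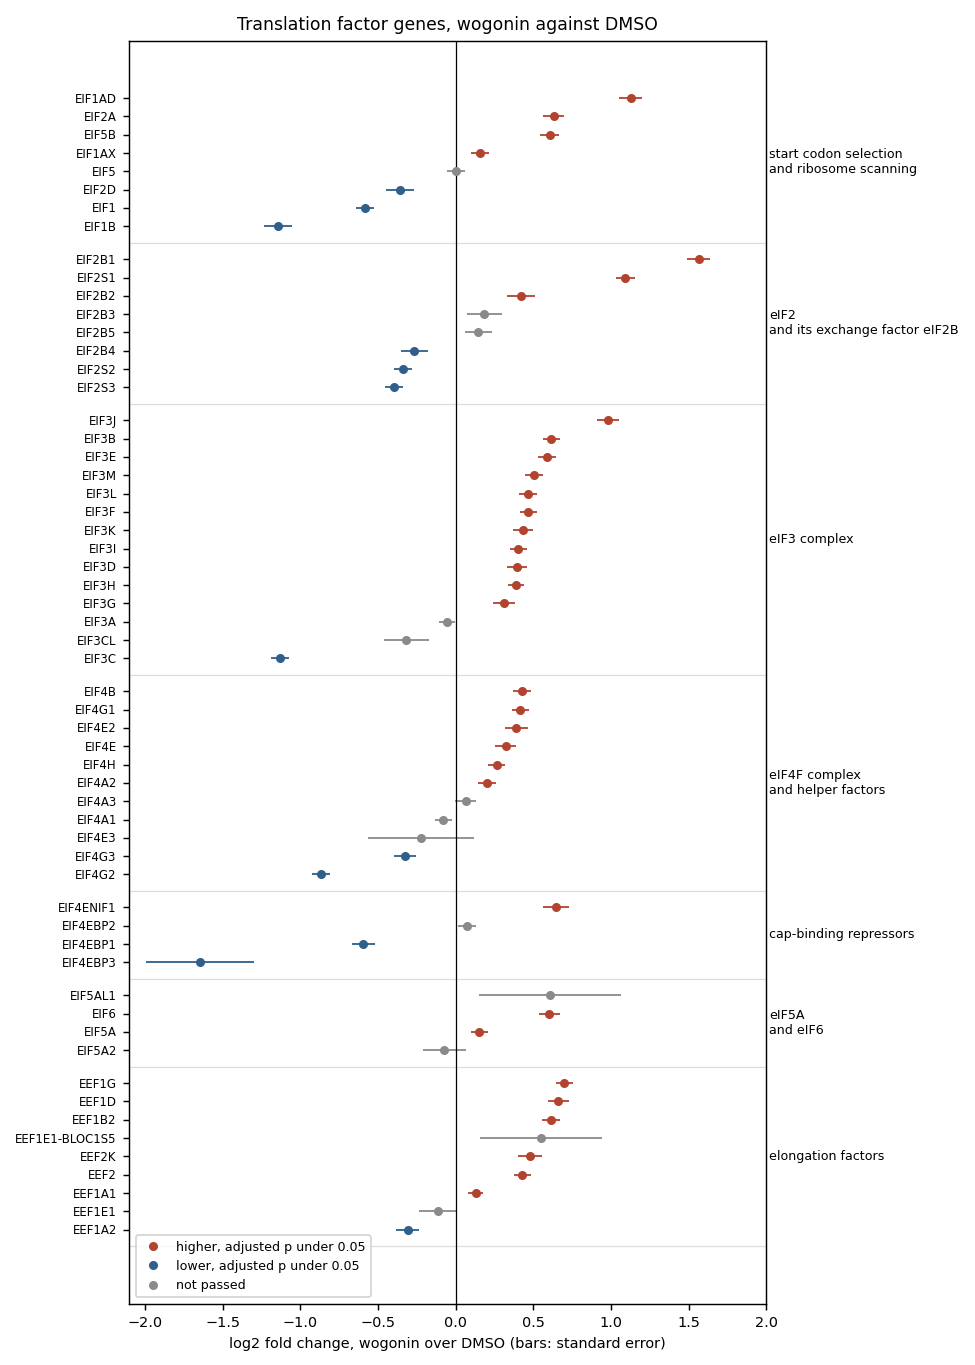
Log2 fold change of wogonin over DMSO for the 58 tested members by role, with standard errors, a marker for each gene and the call by edgeR at an adjusted p under 0.05. The eIF3 subunits sit to the right of 0 except EIF3A, EIF3CL and EIF3C, and EIF2B1 at 1.56 and EIF4EBP3 at -1.65 are the ends of the range.

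**Figure D2:**
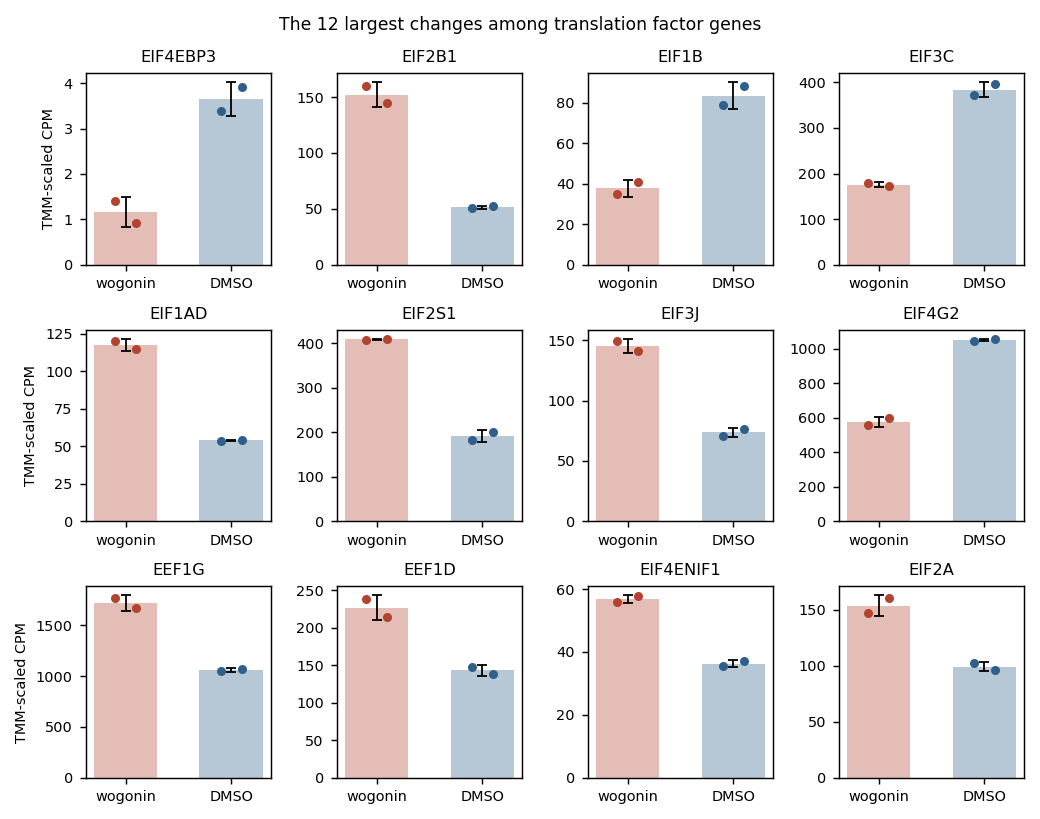
TMM-scaled CPM on a linear axis from 0 for the 12 called members with the largest change, with a point for each library, bars at the group means and error bars of 1 SD (n = 2 each). In each of these genes, which were picked for their change, the groups do not overlap, as in 81.9% of all genes tested.

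Within eIF2, which carries the initiator tRNA, the subunits moved apart. EIF2S1, the alpha subunit that the stress kinases phosphorylate (ENSG00000134001, GRCh37 chr14:67826714-67853233), had 408 and 410 CPM in wogonin 3 and 4, against 183 and 201 CPM in DMSO 1 and 2. Both treated libraries were above both controls. Its mean was 409 ± 0.913 CPM in wogonin and 192 ± 12.6 CPM in DMSO (SD, n = 2 each), for a log2 fold change of 1.09 ± 0.06 (standard error), with an edgeR adjusted p of 2.8e-10. The beta subunit EIF2S2 stood at 281 and 298 CPM in wogonin, against 355 and 377 CPM in DMSO (log2 fold change -0.34, edgeR adjusted p = 8.5e-05). EIF2S3, the gamma subunit that holds GTP and the tRNA, stood at 263 and 288 CPM in wogonin, against 362 and 364 CPM in DMSO (log2 fold change -0.40, edgeR adjusted p = 1.9e-05). For both of these the treated libraries lay below the controls. Per exon length, the ratio of EIF2S1 to EIF2S3 in TPM was 0.955 and 0.873 in wogonin, against 0.310 and 0.339 in DMSO. The ratio of EIF2S2 to EIF2S3 overlapped between groups, at 1.40 and 1.35 in wogonin, against 1.28 and 1.35 in DMSO. Reads that span an exon-exon junction gave EIF2S1 a smaller log2 fold change of 0.68, with 1232 and 1194 such reads in wogonin, against 773 and 918 in DMSO. These were 28.1% and 26.8% of its exon reads in wogonin, against 35.8% and 37.3% in DMSO, so the reads inside exons moved more than the spliced ones. The cause was not tested. ATP6V1D (log2 fold change 0.56) overlaps EIF2S1 by 269 bases on the opposite strand, and the strand setting of the counting is not given in the sources used here.

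EIF2B1, the alpha subunit of eIF2B (ENSG00000111361, GRCh37 chr12:124104953-124118313), had the largest increase of the members. It had 160 and 144 CPM in wogonin, against 50.4 and 52.5 CPM in DMSO, with no overlap. The means were 152 ± 11.0 CPM in wogonin and 51.4 ± 1.46 CPM in DMSO (SD, n = 2 each), for a log2 fold change of 1.56 ± 0.08 (standard error), with an edgeR adjusted p of 7.8e-11, or 2.96-fold. In exon-exon reads it was 1.64. EIF2B2, the beta subunit, was higher at 69.4 and 74.0 CPM in wogonin, against 49.0 and 58.0 CPM in DMSO (log2 fold change 0.42, edgeR adjusted p = 5.7e-04). The gamma subunit EIF2B3 had a log2 fold change of 0.19 with edgeR adjusted p = 0.17 and the catalytic epsilon subunit EIF2B5 one of 0.15 (edgeR adjusted p = 0.15), and neither passed. EIF2B4, the delta subunit, was lower at 43.0 and 41.7 CPM in wogonin, against 48.4 and 53.4 CPM in DMSO (log2 fold change -0.27, edgeR adjusted p = 0.015). That call was lost without DMSO 2 (-0.20) and without wogonin 4 (-0.25), and with DESeq2. Against EIF2B4 the TPM ratio of EIF2B1 was 5.48 and 5.10 in wogonin and 1.53 and 1.45 in DMSO. DDX55 (log2 fold change 0.59) overlaps EIF2B1 by 536 bases on the opposite strand.

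**Figure D3:**
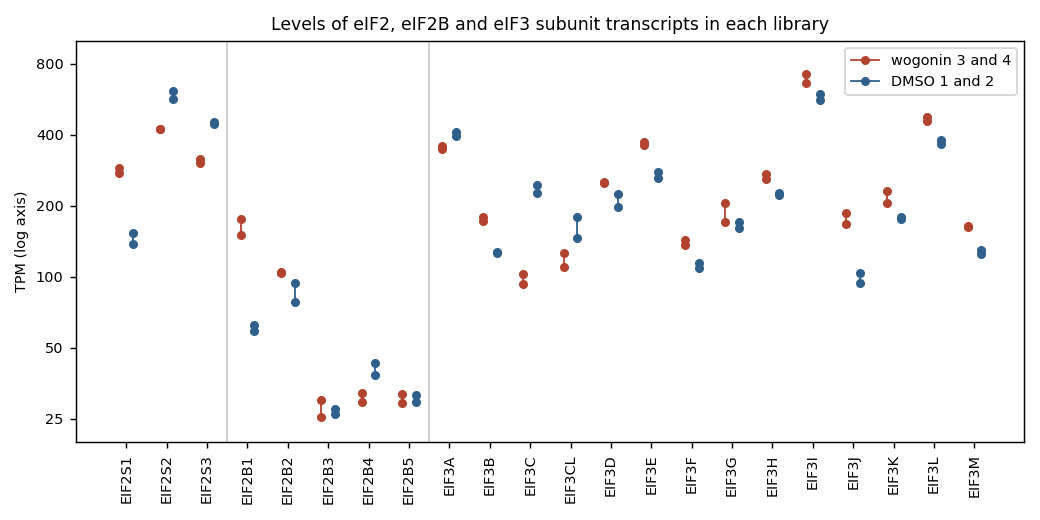
TPM in each library, on a log axis, for the subunits of eIF2, eIF2B and eIF3. EIF2S1 and EIF2B1 are above their DMSO values in both wogonin libraries, while EIF2S2, EIF2S3 and EIF3C are below them.

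Start codon selection showed opposite changes among small factors. EIF1B, a near copy of EIF1, which keeps the scanning ribosome from starting at poor sites (ENSG00000114784, GRCh37 chr3:40351175-40353915), had 34.8 and 40.8 CPM in wogonin, against 78.8 and 88.2 CPM in DMSO. The groups did not overlap, with means of 37.8 ± 4.26 CPM in wogonin and 83.5 ± 6.68 CPM in DMSO (SD, n = 2 each) and a log2 fold change of -1.14 ± 0.09 (standard error), with an edgeR adjusted p of 3.4e-08. EIF1 itself stood at 215 and 224 CPM in wogonin, against 318 and 340 CPM in DMSO (log2 fold change -0.59, edgeR adjusted p = 2.4e-07). Of its reads, 24.3% were counted as unique, and in these the log2 fold change was -0.95. They numbered 485 and 493 in wogonin, against 986 and 1121 in DMSO. JUP, which was lower by 2.10 log2 units, covers all 3784 bases of EIF1 on the opposite strand. EIF1AD, a gene with an eIF1A-like domain (ENSG00000175376, GRCh37 chr11:65764016-65769647), had 120 and 115 CPM in wogonin, against 53.6 and 54.0 CPM in DMSO, again without overlap. Its log2 fold change was 1.13 ± 0.07 (standard error), with an edgeR adjusted p of 2.0e-09, and 0.89 in exon-exon reads. BANF1 (log2 fold change 0.18) shares 98 bases with it on the opposite strand.

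EIF2A, a separate protein that can bring initiator tRNA to the ribosome, had 147 and 160 CPM in wogonin, against 102 and 96.3 CPM in DMSO (log2 fold change 0.63, edgeR adjusted p = 6.5e-07). SERP1 (log2 fold change 0.42) overlaps the gene on the opposite strand. EIF5B, the GTPase of subunit joining, had 395 and 355 CPM in wogonin, against 243 and 250 CPM in DMSO (log2 fold change 0.61, edgeR adjusted p = 2.7e-07). In both genes the treated libraries were the higher ones. EIF2D, which acts on tRNA at the small subunit, was lower at 41.2 and 41.1 CPM in wogonin, against 49.6 and 56.0 CPM in DMSO (log2 fold change -0.36, edgeR adjusted p = 0.0022). EIF1AX, the X-linked eIF1A gene, passed with a log2 fold change of 0.16 with edgeR adjusted p = 0.025, but this call was lost in 9 of 16 alternatives, among them the fits without DMSO 1 (0.17), DMSO 2 (0.12) or wogonin 4 (0.12). EIF5, the GTPase activator of eIF2, had 332 and 361 CPM in wogonin, against 339 and 353 CPM in DMSO, and its groups overlapped. In all, 4 of 8 tested genes of this role were higher (50%), 3 lower (37.5%) and 1 did not pass, with a median of 0.08. Of all genes tested 32.3% were higher and 31.5% lower.

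The subunits of eIF3, the largest initiation factor, were mostly higher. Of 14 tested genes 11 were higher (78.6%), 1 was lower (7.14%) and 2 did not pass, against 32.3% and 31.5% of all genes. The median log2 fold change was 0.42. Leaving out EIF3C and its copy EIF3CL, 11 of 12 subunits were higher and values ran from -0.05 to 0.98. EIF3J, a loosely bound subunit at the mRNA channel of the ribosome, led with 149 and 141 CPM in wogonin, against 71.0 and 76.4 CPM in DMSO. Its means of 145 ± 5.65 CPM in wogonin and 73.7 ± 3.84 CPM in DMSO (SD, n = 2 each) gave a log2 fold change of 0.98 ± 0.07 (standard error), with an edgeR adjusted p of 6.2e-09, while SPG11, which overlaps it by 334 bases on the opposite strand, had one of -0.80. EIF3B, a scaffold subunit that binds RNA, had 404 and 410 CPM in wogonin, against 269 and 262 CPM in DMSO (log2 fold change 0.62, edgeR adjusted p = 6.4e-08). EIF3I, which has the highest TPM of the complex, had 726 and 662 TPM in wogonin, against 563 and 592 TPM in DMSO (log2 fold change of counts 0.40, edgeR adjusted p = 9.9e-06). The others that were higher were EIF3E (0.59), EIF3M (0.50), EIF3L (0.47), EIF3F (0.47), EIF3K (0.44), EIF3D (0.40), EIF3H (0.39) and EIF3G (0.31). EIF3A, the largest scaffold subunit, did not pass, at 545 and 554 CPM in wogonin, against 565 and 575 CPM in DMSO (edgeR adjusted p = 0.38), but was called lower with library totals alone (-0.15). The TPM ratio of EIF3J to EIF3A was 0.519 and 0.483 in wogonin, against 0.238 and 0.251 in DMSO.

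EIF3C was lower while most of the complex was higher, but few of its reads were counted as unique. EIF3CL is a near-identical copy on the same chromosome. The pseudogene RP11-57A19.4 overlaps EIF3C by 47173 bases on the opposite strand and had 0 reads in every library. Why the reads were not counted as unique was not tested. EIF3C (ENSG00000184110, GRCh37 chr16:28699879-28747051) had 179 and 172 CPM in wogonin, against 373 and 395 CPM in DMSO, a log2 fold change of -1.13 ± 0.06 (standard error), with an edgeR adjusted p of 1.6e-10. Only 1.72% of its exon reads were counted as unique. Those 49 and 41 reads in wogonin, against 60 and 74 in DMSO, gave -0.42 (edgeR adjusted p = 0.094). EIF3CL had 86.6 and 105 CPM in wogonin, against 133 and 106 CPM in DMSO (log2 fold change -0.32, edgeR adjusted p = 0.11), with 0.122% of its reads unique. It passed as lower with library totals alone (-0.41), without a filter, with DESeq2 and voom, and without DMSO 2 (-0.48) or wogonin 4 (-0.47). Summed over both genes, a sum chosen after seeing the data, there were 2851 and 3003 reads in wogonin, against 5970 and 6149 in DMSO, and the log2 fold change was -0.90 ± 0.05 (standard error), with an edgeR adjusted p of 8.3e-10. The reads assigned to the pair were fewer in wogonin, and their split between the copies is uncertain. Reads shared with other genes or places were not told apart.

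In the eIF4 group the scaffold genes changed places. EIF4G1, the scaffold that joins the cap-binding protein to the helicase and to eIF3, had 1048 and 1001 CPM in wogonin, against 783 and 753 CPM in DMSO, a log2 fold change of 0.42 with edgeR adjusted p = 5.8e-06. EIF4G2, a relative that lacks the eIF4E binding region and serves initiation without it (GRCh37 chr11:10818597-10830657), had 556 and 598 CPM in wogonin, against 1047 and 1056 CPM in DMSO. Its means of 577 ± 29.3 CPM in wogonin and 1051 ± 6.52 CPM in DMSO (SD, n = 2 each) gave a log2 fold change of -0.87 ± 0.06 (standard error), with an edgeR adjusted p of 2.1e-09, and -0.86 in unique reads. EIF4G1 thus took 61.7% (95% Wilson interval 61.0 to 62.4%) and 59.2% (58.4 to 59.9%) of the reads of the 3 EIF4G genes in wogonin, against 40.3% (39.6 to 40.9%) and 39.0% (38.4 to 39.6%) in DMSO. The difference in share was 20.8 percentage points in reads, 20.8 per exon length and 19.8 in unique reads. EIF4G3 was lower at 94.5 and 93.5 CPM in wogonin, against 114 and 121 CPM in DMSO (log2 fold change -0.33, edgeR adjusted p = 5.3e-04).

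**Figure D4:**
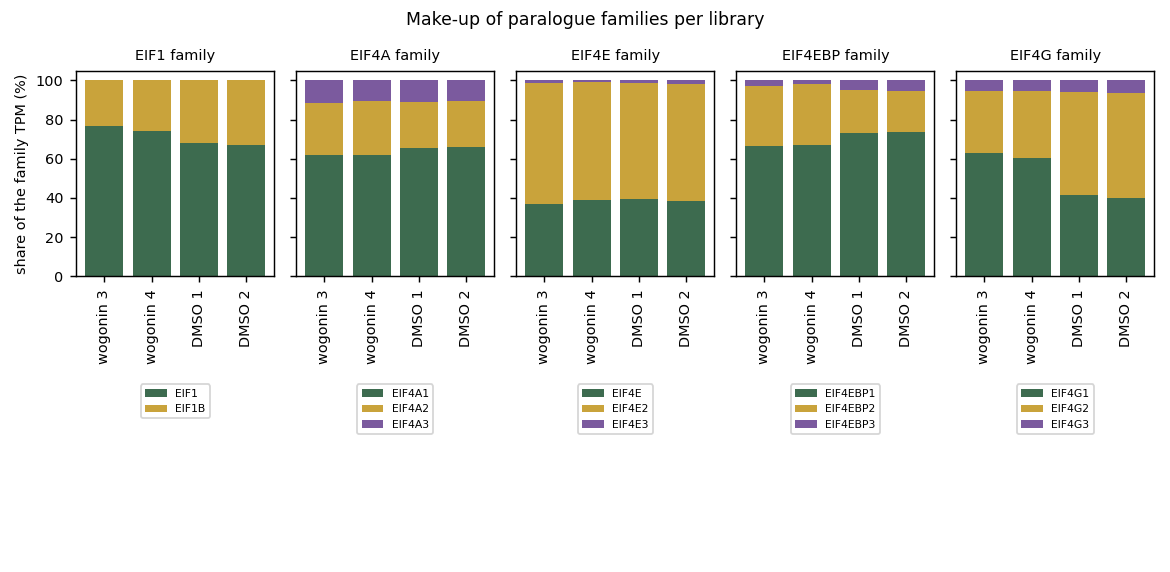
Stacked bars of each paralogue's share of its family's summed TPM, in percent, with 1 bar for each library and no error bars. EIF4G1 stood at 62.7 and 60.2% in wogonin, against 41.3 and 40.0% in DMSO, and EIF4EBP1 at 66.3 and 67.0% in wogonin, against 73.2 and 73.5% in DMSO.

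Of the helicase genes, 1 of 3 passed, against 63.8% of all genes either way. EIF4A1, the main helicase of eIF4F, had 615 and 633 CPM in wogonin, against 671 and 648 CPM in DMSO (log2 fold change -0.08, edgeR adjusted p = 0.21), and 0.191% of its reads were unique. It was called lower under library totals and under upper-quartile factors (-0.17 in each), settings in which the all-gene median was -0.09. The same call was made in exon-exon reads (-0.14). On the same strand SENP3-EIF4A1 overlaps EIF4A1 by 6010 bases and SNORA67_8 by 6180. Their part in the reads not counted as unique was not tested. EIF4A2 had 331 and 362 CPM in wogonin, against 305 and 296 CPM in DMSO (log2 fold change 0.20, edgeR adjusted p = 0.0063), but this call was lost in 8 of 16 alternatives, among them the fits without DMSO 1 (0.21), DMSO 2 (0.18) or wogonin 4 (0.13). EIF4A3, a helicase of the exon junction complex, overlapped between groups, at 121 and 112 CPM in wogonin, against 115 and 107 CPM in DMSO (log2 fold change 0.06). EIF4B and EIF4H, which stimulate the helicase, had log2 fold changes of 0.43 and 0.26 (edgeR adjusted p = 6.4e-06 and 6.0e-04).

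EIF4E, the cap-binding protein, had 112 CPM in each wogonin library, against 92.5 and 87.1 CPM in DMSO (log2 fold change 0.32, edgeR adjusted p = 6.3e-04). EIF4E2, a cap-binding homologue tied to repression, had 95.8 and 88.6 CPM in wogonin, against 70.9 and 69.9 CPM in DMSO (log2 fold change 0.39, edgeR adjusted p = 2.4e-04), but 0.04 in unique exon reads and 0.01 in exon-exon reads. The call was thus not made in either of these read classes. TIGD1 (log2 fold change -1.01) shares 465 bases with EIF4E2 on the opposite strand. EIF4E3 was low and overlapped between groups, at 2.70 and 1.84 CPM in wogonin, against 2.12 and 3.18 CPM in DMSO.

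Of the repressors that bind eIF4E, 2 of 4 were lower (50%), 1 was higher (25%) and 1 did not pass, against 31.5% lower and 32.3% higher of all genes. EIF4EBP1, which is released from eIF4E when mTOR phosphorylates it, had 54.5 and 53.8 CPM in wogonin, against 80.4 and 83.0 CPM in DMSO. With means of 54.2 ± 0.534 CPM in wogonin and 81.7 ± 1.86 CPM in DMSO (SD, n = 2 each), the log2 fold change was -0.59 ± 0.08 (standard error), with an edgeR adjusted p of 4.0e-06. EIF4EBP2 had 173 and 170 CPM in wogonin, against 164 and 161 CPM in DMSO, and did not pass (log2 fold change 0.07, edgeR adjusted p = 0.28). EIF4EBP3 (GRCh37 chr5:139927251-139929163) was the member that fell furthest, but from few reads, 15 and 10 in wogonin, against 40 and 48 in DMSO (log2 fold change -1.65 ± 0.35 as standard error, edgeR adjusted p = 5.7e-04). The readthrough transcript ANKHD1-EIF4EBP3 overlaps it by 1904 bases on the same strand and had 1722 and 1290 reads in wogonin, against 536 and 876 in DMSO. It did not pass (log2 fold change 1.26, edgeR adjusted p = 0.091). ANKHD1 overlaps EIF4EBP3 by 1913 bases on the same strand. It had 1142 and 1626 reads in wogonin, against 1824 and 1476 in DMSO (edgeR adjusted p = 0.79). How reads were split among these 3 annotations was not tested. EIF4ENIF1, a protein that carries eIF4E into the nucleus and into mRNA granules, had 56.0 and 57.6 CPM in wogonin, against 35.5 and 37.1 CPM in DMSO (log2 fold change 0.65 ± 0.09 as standard error, edgeR adjusted p = 6.0e-06). DRG1 (log2 fold change -0.10) covers all 59132 bases of EIF4ENIF1 on the opposite strand, and SFI1 (0.33) overlaps it by 7421. Of the EIF4ENIF1 reads 57.9% were unique, with a log2 fold change of 0.60 in these. The TPM ratio of EIF4EBP1 to EIF4E was 6.36 and 6.28 in wogonin, against 11.4 and 12.5 in DMSO.

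The elongation factors held the most abundant transcripts of the family, and EEF1A1 and EEF2 together made up 45.7 to 46.1% of the members' reads in each library. EEF1A1, the carrier of aminoacyl-tRNA, had 9017 and 9085 CPM in wogonin, against 8208 and 8332 CPM in DMSO (log2 fold change 0.13 ± 0.05 as standard error, edgeR adjusted p = 0.026). Its call was lost in 7 of 16 alternatives, among them the fits without DMSO 1 (0.10) or DMSO 2 (0.14), and in TPM, which carry no TMM scaling, the groups overlapped, at 6053 and 5782 TPM in wogonin, against 5857 and 6064 TPM in DMSO. EEF1A2, the copy used in nerve and muscle, was lower at 105 CPM in each wogonin library, against 138 and 122 CPM in DMSO (log2 fold change -0.31, edgeR adjusted p = 0.0012). It took 3.62 and 3.58% of the TPM of both EEF1A genes in wogonin, against 5.13 and 4.51% in DMSO. EEF2, the translocase, had 4091 and 4095 CPM in wogonin, against 3155 and 2924 CPM in DMSO (log2 fold change 0.43, edgeR adjusted p = 3.1e-06). EEF2K, the kinase that inhibits eEF2, had 88.7 and 88.6 CPM in wogonin, against 66.9 and 60.4 CPM in DMSO (log2 fold change 0.48, edgeR adjusted p = 4.6e-05).

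The 3 subunits of the eEF1B exchange complex were higher together. EEF1G, the structural subunit (GRCh37 chr11:62327073-62342401), had 1772 and 1666 CPM in wogonin, against 1048 and 1070 CPM in DMSO, a log2 fold change of 0.70 ± 0.05 (standard error), with an edgeR adjusted p of 1.6e-08. In the 4.01% of its reads that were unique it was 0.65. MIR3654 overlaps EEF1G by 15327 bases on the same strand. EEF1D, an exchange subunit, had 238 and 215 CPM in wogonin, against 148 and 138 CPM in DMSO (log2 fold change 0.66, edgeR adjusted p = 2.8e-07). EEF1B2, the smaller exchange subunit, had 349 and 373 CPM in wogonin, against 232 and 240 CPM in DMSO (log2 fold change 0.61, edgeR adjusted p = 1.3e-07). In each of the 3 genes both treated libraries were above both controls, and the TPM ratio of EEF1G to EEF1A1 was 0.393 and 0.367 in wogonin, against 0.256 and 0.257 in DMSO. EEF1E1, a scaffold protein of the tRNA synthetase complex, and its readthrough transcript with BLOC1S5 overlapped between groups and did not pass (edgeR adjusted p = 0.44 and 0.24).

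EIF5A, which relieves ribosomes stalled on certain peptides and needs the modified residue hypusine, had 748 and 739 CPM in wogonin, against 662 and 676 CPM in DMSO (log2 fold change 0.15, edgeR adjusted p = 0.019). The call was lost in 7 of 16 alternatives, among them the fits without DMSO 1 (0.12) or DMSO 2 (0.16), and its TPM overlapped, at 1064 and 996 in wogonin, against 999.5 and 1042 in DMSO. EIF5A2 had 16.8 and 20.3 CPM in wogonin, against 17.3 and 21.7 CPM in DMSO, and EIF5AL1 18 and 15 reads in wogonin, against 17 and 7 in DMSO, and neither passed (edgeR adjusted p = 0.66 and 0.26). EIF6, which keeps the ribosomal subunits apart, was higher at 118 and 116 CPM in wogonin, against 76.2 and 77.6 CPM in DMSO (log2 fold change 0.60, edgeR adjusted p = 1.1e-06).

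Many members have processed copies elsewhere in the genome, and some, such as EIF2A and EIF4ENIF1, lie wholly under another annotated gene. Why reads were not counted as unique was not tested. Unique reads were used as a check on the whole. These were 61.7% of the members' exon reads in each wogonin library, against 60.3 and 59.7% in DMSO, and 87.0 to 87.2% over all genes. With unique exon reads 31 of 56 members were higher and 11 lower, against 32.2% and 32.4% of all genes. With exon-exon reads, a column chosen after seeing the data, 29 of 56 were higher and 13 lower, against 27.6% and 28% of all genes. In some members, such as EIF1, EIF2A and EIF4ENIF1, the counts of both classes were nearly equal. EIF2A had 1082 and 1172 unique and 1085 and 1174 exon-exon reads in wogonin, and 831 and 806 of each in DMSO. For such genes the classes may hold the same reads and are not separate checks. Intron reads moved too. Of 52 members with 20 or more intron reads, 27 (51.9%) had a higher intron share in both wogonin libraries than in either DMSO library and 2 (3.85%) a lower one, against 38.9% and 10.6% of 12590 genes. EIF2S3, whose exon level was lower, had an intron share of 17.9% (95% Wilson interval 16.6 to 19.2%) and 16.3% (15.2 to 17.5%) of gene reads in wogonin, against 6.42% (5.75 to 7.17%) and 7.17% (6.47 to 7.93%) in DMSO. For EIF2B5 it was 37.6 and 33.6% in wogonin, against 22.6 and 20.3% in DMSO, but its annotated region also spans DVL3, AP2M1, ABCF3 and EIF4G1. Introns over all genes were also high in wogonin 3, and the part of that library's intron share was not tested.

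**Figure D5:**
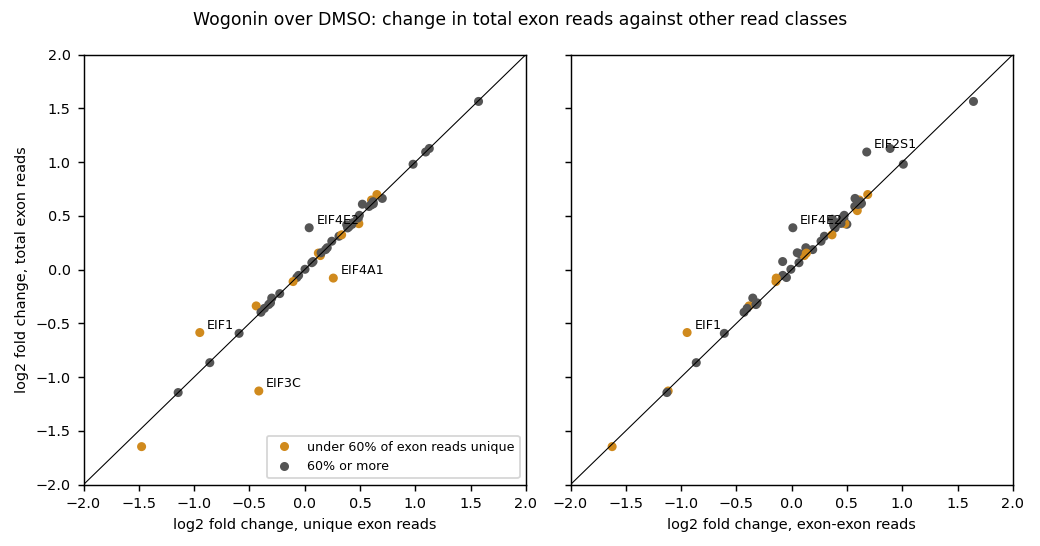
Log2 fold change of each member in total exon reads (vertical axes) against the value in unique exon reads (left) and in exon-exon reads (right). EIF1 had nearly equal counts in both of these classes, which may hold the same reads. Most points lie near the diagonal, while EIF1, EIF3C, EIF4E2 and EIF4A1 lie off it in unique reads and EIF1, EIF4E2 and EIF2S1 in exon-exon reads, with EIF4A1 at -0.08 in total and 0.26 in its few unique reads.

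Genes that act on these factors were taken from lists chosen with earlier results known. Their shares are to be read against the 32.3% of all genes that were higher and the 31.5% that were lower. Of 8 kinases and phosphatase subunits of eIF2 and proteins that act with them, 3 were higher (37.5%), 4 lower (50%) and 1 did not pass. GCN1L1, an activator of the amino acid sensing kinase, averaged 368 ± 15.6 CPM in wogonin and 198 ± 14.5 CPM in DMSO (SD, n = 2 each; log2 fold change 0.89, edgeR adjusted p = 5.2e-09). EIF2AK3, the endoplasmic reticulum stress kinase PERK, averaged 42.0 ± 2.39 CPM in wogonin and 21.6 ± 1.52 CPM in DMSO (log2 fold change 0.96, edgeR adjusted p = 5.5e-07). EIF2AK2, the double-stranded RNA kinase, had a log2 fold change of 0.36 in total and 0.00 in exon-exon reads. The lower ones, named after their values were seen, were PPP1R15A (-0.78), a stress-induced phosphatase subunit, the adaptor NCK1 (-0.26) and the kinases EIF2AK1 (-0.22) and EIF2AK4 (-0.20). The NCK1 call was lost without DMSO 2 (-0.18) or wogonin 3 (-0.20), that of EIF2AK4 without DMSO 2 (-0.18) or wogonin 4 (-0.16), both with DESeq2, and that of EIF2AK1 without wogonin 3 (-0.15). Of 13 regulators that bind the cap or the poly(A) tail complex, 6 were higher (46.2%), 5 lower (38.5%) and 2 did not pass. PDCD4, an inhibitor of the eIF4A helicase, averaged 18.6 ± 3.90 CPM in wogonin and 83.3 ± 1.34 CPM in DMSO (SD, n = 2 each; log2 fold change -2.16, edgeR adjusted p = 8.0e-10), the largest change of the genes named here. PAIP2, which sequesters poly(A) binding protein, averaged 63.9 ± 3.57 CPM in wogonin and 125 ± 5.94 CPM in DMSO (log2 fold change -0.97, edgeR adjusted p = 1.2e-08). DAP was higher by 0.58 log2 units.

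Of 11 accessory initiation and recycling factors, 8 were higher (72.7%), 0 were lower and 3 did not pass, with a median of 0.42 and the same background. LTV1, a factor of small subunit assembly, had a log2 fold change of 1.03, the recycling ATPase ABCE1 one of 0.78 and BZW2 one of 0.63. Of 10 enzymes that modify eIF5A and eEF2, 4 were higher (40%), 2 lower (20%) and 4 did not pass, and DPH5 (1.01), DPH2 (0.96) and DPH7 (0.67), which build diphthamide on eEF2, were the ones with the smallest adjusted p. Of 7 termination and rescue factors 3 were higher (42.9%) and 1 was lower (14.3%). The release factor ETF1 averaged 296 ± 8.51 CPM in wogonin and 207 ± 2.14 CPM in DMSO (log2 fold change 0.51), PELO was at 0.64 (not passed in unique reads, at 0.49, or exon-exon reads, at 0.47), and GSPT2, a partner of ETF1, was lower at 12.6 ± 0.436 CPM in wogonin and 26.3 ± 0.490 CPM in DMSO (SD, n = 2 each; log2 fold change -1.06). Of 5 partners of eEF1 and S6 kinases 4 were higher (80%) and 1 was lower (20%), with the kinase RPS6KB2 at 0.87 and RPS6KB1 at -0.50 (-0.28 in unique reads), and VARS, the valyl-tRNA synthetase, at 0.37. Of 11 mitochondrial translation factors 5 were higher (45.5%) and 1 was lower (9.09%), led by MTRF1L (0.89), TUFM (0.49) and GFM2 (0.57).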

How the data were processed

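Each library came with 1 table of its own. Per the file headers it lists deposited counts of reads for each gene within exons, within introns and across exon-exon junctions. Each is given in total and as unique reads. TPM and a fraction (unique reads over total) were also computed by the authors, per the file headers. Builds GRCh 37 and hg 19 appear in the submitters' processing notes. Aligner, counting program, annotation and strandedness: not given in the sources used here. Gene coordinates follow the deposited tables, and start windows are RefSeq GRCh38.p14.

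Total exon counts of all 57773 genes entered 1 fit in R 4.3.3 and edgeR 4.0.16, with TMM scaling, filterByExpr and a robust quasi-likelihood model of treatment alone. P-values (2-sided) were adjusted by Benjamini-Hochberg over the 13449 genes tested, with a threshold of 0.05. CPM are TMM-scaled. With 2 libraries in each group the smallest exact permutation p is 0.333. The model was tested on simulated data, where it recovered large changes more often than small ones. Few genes were changed there, whereas 63.8% of genes were called here. The simulation therefore does not test the fit under such broad changes. Between replicates, counts gave a chi-square per degree of freedom of 6.77 (wogonin) and 2.86 (DMSO), so no library was a copy of another. Alternatives included DESeq2 1.42.0 and voom in limma 3.58.1. Members and lists were chosen with earlier results of these data known. Values are given in full for the 12 called members with the largest change, the 6 with the highest mean TPM and the families EIF4A, EIF4E, EIF4G, EIF4EBP, EIF5A and EEF1A, and up to 3 genes of each related list by smallest adjusted p are named. A gene on chromosome Y is counted without its level.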

Additional observations from a re-analysis of the deposited data

How the results depend on the processing

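Of 45 called members, 38 kept their call and sign in every alternative that left the size of a change out of the call, and EEF1A1, EIF1AX, EIF2B4, EIF3C, EIF4A2, EIF4E2 and EIF5A did not. Higher members numbered 29 to 33 and lower ones 11 to 15, leaving aside the size threshold of 1 log2 unit, which left 3 and 3. Leaving out 1 library gave 29 to 33 higher and 12 lower, with a median of 0.24 to 0.33. The median was 0.22 with library totals alone and with upper-quartile factors, against 0.32. Of 65 related genes tested, 33 were higher and 14 lower, with 28 to 34 higher and 11 to 16 lower over the alternatives. With library totals alone they were 32 and 16, where 3660 genes were higher and 4977 lower of 13449. Signs changed mostly for genes near 0. With library totals alone EIF4EBP2 was at -0.0177, EIF5 at -0.0903 and EIF4A3 at -0.0281, and with upper-quartile factors they were at -0.0175, -0.0898 and -0.0281. EIF5 was at -0.0141 without a filter and -0.00281 with mitochondrial genes removed. In unique exon reads EIF4A1 was at 0.26. In total gene reads EIF4EBP2 was at -0.00476, EIF5 at -0.0725 and EIF4A3 at -0.0118. In unique gene reads EIF4E2 was at -0.0278, EIF5 at -0.0613, EIF4A1 at 0.19 and EIF4A3 at -0.000485. In exon-exon reads EIF4EBP2 was at -0.0817 and EIF5 at -0.00751. Without 1 library EEF1E1 ran from -0.258 to 0.0224, EIF4E3 from -0.518 to 0.0948, EIF5 from -0.0634 to 0.0675 and EIF5A2 from -0.243 to 0.0948. Differences in share, wogonin minus DMSO in percentage points, were 1.27 in unique reads and 1.22 per exon length for EEF1A1 (0.403 in reads), 3.44 and 7.87 for EIF1 (5.55), 0.0190 and -3.84 for EIF4A1 (-4.11), 5.26 in unique reads for EIF4E (-0.792) and -6.70 per exon length for EIF4EBP1 (-9.05). The cause was not tested. Exon-exon reads, the sum of EIF3C and EIF3CL, the size threshold and the removal of mitochondrial genes were chosen after seeing the data. No paired analysis was possible because the groups share no replicate numbers.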
